A study of Mus musculus with 18 samples.

Results

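The transcription factor NRF2, its partners and its repressors were followed in mouse liver as 10 genes: Nfe2l2, which encodes NRF2, its relative Nfe2l1, the small Maf genes Mafg, Maff and Mafk, the competing factor Bach1, and Keap1, Cul3, Sqstm1 and Btrc, whose products control NRF2 stability. They were selected by gene name, and all 10 were found among the 35275 genes of the deposited count table. RNA sequencing was done on 18 libraries of mice on a mixed B6;129P2 background, all given diethylnitrosamine (DEN), a liver carcinogen. NRF2 knockout (KO) and wild-type (WT) mice gave 3 libraries each at each of 3 times after DEN, which were 2 days, 4 weeks and 36 weeks, written 2D, 4W and 36W. Neither the knockout allele nor the age at DEN is named, and no group without DEN was sampled. The tissue is labelled liver tumor at 2D and liver tissue at 4W and 36W, while the extraction text shared by all libraries speaks of tumours. Sample titles carry the letter B at 2D and A later, without a stated meaning, so time and whatever that letter marks cannot be told apart. Whether the 3 libraries of a group came from separate animals is not stated, and p-values therefore reflect the spread among these libraries, which may be technical.

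In unstressed cells KEAP1 holds NRF2 on a CUL3 ubiquitin ligase, which sends it to the proteasome, and βTrCP, the product of Btrc, marks it for the same fate after phosphorylation by GSK3. Electrophiles modify KEAP1, and p62, the product of Sqstm1, can sequester it, after which NRF2 accumulates. NRF2 then pairs with a small Maf protein on antioxidant response elements of detoxification and glutathione genes. BACH1 pairs with the same small Maf proteins and represses through such elements, and NRF1, the product of Nfe2l1, uses them to raise proteasome genes. In liver this pathway sets much of the capacity for drug conjugation. Most of its control acts on proteins, and the values here are RNA.

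The letters of the element are shown first, since 4 of the 10 genes carry them close to a start site and 3 of these 4 are the small Maf genes, which encode the partners of NRF2. RefSeq promoter windows of 250 bases before each start on GRCm38.p6 were available for 9 of the 10 genes, in 15 windows. The element core TGACNNNGC was searched on both strands and was found in 4 of the 15 windows, 1 each of Nfe2l2, Mafg, Maff and Mafk. Of 32851 promoter windows of that length 10.2% hold it, and genes with several windows have more places for a match. The AP-1 letters TGANTCA, which can overlap that core, were found in 0 of the 15 windows and in 6.75% of all promoter windows. A match describes letters and is not a measured binding site. The stretches below run 5′ to 3′ on the strand of the gene, and capitals mark the core, which reads on the opposite strand in Mafg and Mafk. The Nfe2l2 stretch (chr2:75704885-75704913, minus strand) has its core 240 bases before the start and lies in an exon of the neighbouring E030042O20Rik. That of Mafg (chr11:120633751-120633779, minus strand) has it 222 bases before the start. In Mafk (chr5:139791513-139791535, plus strand) it lies 13 bases before the RefSeq start, in an exon of Mafk in GENCODE M21.
Nfe2l2: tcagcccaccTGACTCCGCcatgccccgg
Mafg: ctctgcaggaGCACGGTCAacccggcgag
Mafk: gatcccggaaGCGGTGTCAgtac

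Maff and Bach1 changed most between the times, and their upstream sequence is given for that reason. The first Maff window (chr15:79346371-79346620, plus strand) holds no annotated exon, and its core lies 112 bases before the RefSeq start of that window. That start is upstream of the deposited start of Maff (chr15:79347541). Maff windows 2 and 3 hold no match to the core. The Bach1 stretch (chr16:87698704-87698944, plus strand) ends at the base before the deposited start of the gene and holds neither set of letters.
Maff: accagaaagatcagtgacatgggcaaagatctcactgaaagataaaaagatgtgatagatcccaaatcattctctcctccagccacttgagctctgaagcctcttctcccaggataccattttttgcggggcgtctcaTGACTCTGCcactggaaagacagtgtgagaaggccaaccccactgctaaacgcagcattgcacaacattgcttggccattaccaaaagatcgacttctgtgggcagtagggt
Bach1: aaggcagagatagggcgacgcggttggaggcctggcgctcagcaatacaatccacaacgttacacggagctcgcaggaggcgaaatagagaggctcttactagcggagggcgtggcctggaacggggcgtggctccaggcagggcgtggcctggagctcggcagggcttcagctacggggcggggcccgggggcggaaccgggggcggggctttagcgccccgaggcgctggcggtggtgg

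The libraries held 15.3 to 24.2 M gene counts. Levels are CPM, counts scaled to a common library size with TMM factors over the 18 libraries, and a floor of 3 counts equals 0.132 to 0.207 CPM, a limit that covers counting error only. The 10 genes were above this floor in every library. All 8 hepatocyte markers were present in every group, with summed levels of 84863 to 247729 CPM. WT replicate 3 of 2D stood apart, with a spread around its group mean of 0.595 log2 units, 65.8 CPM of the bile duct keratin Krt19 and 1192 CPM of the collagen gene Col1a1. The other 5 libraries of 2D had at most 5.30 CPM of Krt19 and 164 CPM of Col1a1. For the 10 genes, calls that changed without that library are given with and without it. The counts of pathway lists at 2D are given only with it. Later groups were not uniform either. KO replicate 3 of 4W had 277 CPM of Col1a1, against 30.7 and 36.3 CPM in KO replicates 1 and 2. It had 58.8 CPM of the actin gene Acta2, against 2.31 and 2.93 CPM. Spreads of the 36W WT libraries were 0.523, 0.482 and 0.465 log2 units. In bulk tissue, fewer cells of a type and less RNA per cell cannot be told apart.

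Between genotypes, the knocked-out gene itself was the single one of the 10 genes called in the fit of each time by edgeR, at 4W and at 36W. Calls were made with its quasi-likelihood test at a Benjamini-Hochberg adjusted p under 0.05 over all genes tested. Other settings added Mafg at 4W and Keap1 at 36W, or lost Nfe2l2 at 36W, and these are given with each gene. At 2D 0 of the 10 genes were called, against 0.165% of 13913 genes tested. An unadjusted p under 0.05 was found for 3 of the 10 and for 2236 of those 13913 genes. DESeq2 and limma-voom also called 0 of the 10 there. At 4W 1 of 10 was called, lower in KO, against 6.08% of all genes in either direction and 4.13% lower. At 36W 1 of 10 was called, lower in KO, against 0.037% of all genes in either direction and 0.0148% lower. KO and WT libraries did not overlap for 4 genes at 2D, 4 at 4W and 2 at 36W, where the same held for 22.8%, 27.9% and 18.6% of all genes. The median log2 fold change of the 10 genes was -0.26, -0.17 and -0.21 at 2D, 4W and 36W, beside -0.04, 0.01 and 0.01 over all genes tested.

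**Figure D1:**
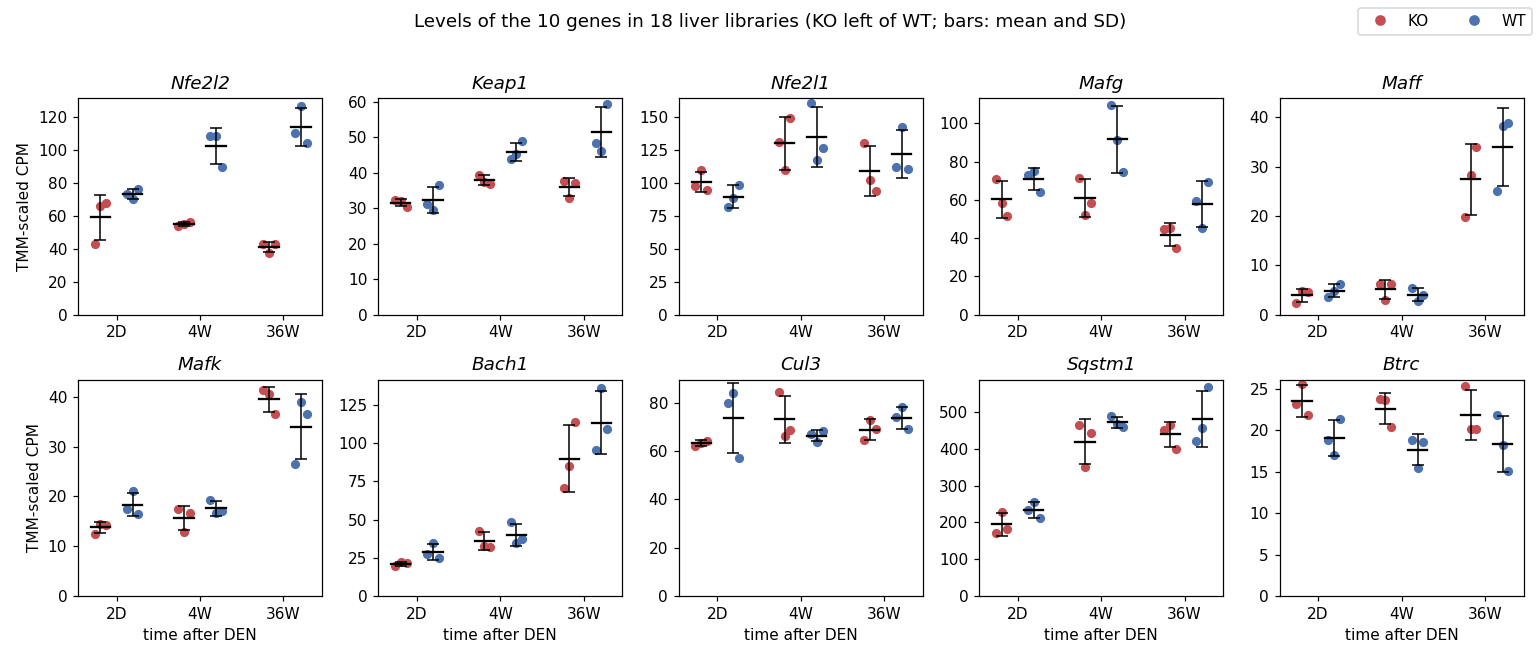
TMM-scaled CPM of the 10 genes in each of the 18 libraries by time after DEN, KO (red) left of WT (blue), with bars for the mean and SD of 3 libraries and axes that start at 0. Nfe2l2 separates by genotype at 4W and 36W, while Maff, Mafk and Bach1 are higher at 36W in both genotypes.

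Nfe2l2 (ENSMUSG00000015839, mm10 chr2:75675513-75704641, minus strand) kept reads in every KO library. At 2D it had 43.3, 66.3 and 67.8 CPM in the KO libraries, against 73.2, 70.2 and 76.2 CPM in the WT libraries. All KO values were below all WT values, with KO replicate 1 well under the other KO libraries, and the difference was not called (log2 fold change -0.32, SE 0.17, adjusted p = 0.396). At 4W the levels were 54.03, 55.2 and 56.3 CPM in the KO libraries, against 109, 109 and 90.03 CPM in the WT libraries. The KO libraries lay close together below the WT libraries, and Nfe2l2 fell by 0.90 on the log2 scale (SE 0.10, adjusted p = 0.00211), to 53.4% of the WT level. At 36W the levels were 42.9, 37.8 and 42.99 CPM in the KO libraries, against 110.4, 127 and 105 CPM in the WT libraries. The gap was widest there, with Nfe2l2 down by 1.44 (SE 0.13, adjusted p = 0.0328), at 36.8% of the WT level. Which exons the reads in KO come from was not resolved, since the counts cover the whole gene. The call at 36W was lost on leaving out KO replicate 1, 2 or 3 or WT replicate 1 or 3 (adjusted p between 0.0513 and 0.389, log2 fold change between -1.50 and -1.38), with few genes called at that time. It was also lost with the replicate number as a block (-1.44, adjusted p = 0.122) and with scaling by library size alone (-1.38, adjusted p = 0.0558). In one fit of all 18 libraries its adjusted p at 36W was 0.000153.

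The genotype difference of Nfe2l2 grew with time, and both genotypes moved. In KO livers it fell between 2D and 36W by 0.52 on the log2 scale (adjusted p = 0.0108). In WT livers it rose over the same span by 0.64 (adjusted p = 0.00242). The fall in KO had an adjusted p of 0.0563 without KO replicate 3 of 2D. Scaling by library size alone, which moves the median of all genes by -0.39 in that WT comparison, left a rise of 0.25 (adjusted p = 0.232). The KO effect at 36W minus the one at 2D was -1.16 on the log2 scale (SE 0.20, adjusted p = 0.0109), in the fit of all libraries, where Nfe2l2 was the 1 gene of the 10 called for this difference, against 3.04% of all genes in either direction and 2.43% with a lower KO effect at 36W. With library size alone that difference was -0.97 (adjusted p = 0.052). For Nfe2l2 the KO effect moved by -0.59 from 2D to 4W (adjusted p = 0.165) and by -0.57 from 4W to 36W (adjusted p = 0.176). In these steps 0 of the 10 genes were called, against 1.34% and 0.565% of all genes. Of the 10, 1 in each step had an unadjusted p under 0.05, as had 2434 and 2379 of 14877 genes tested. DESeq2 and limma-voom called 0 of the 10 for both steps too. Without KO replicate 1 of 2D the first step became -0.77 (adjusted p = 0.0315). In order of level, the WT groups stood at 114 ± 11.7 CPM at 36W, 103 ± 10.9 at 4W and 73.2 ± 2.999 at 2D, followed by KO at 2D with 59.1 ± 13.8, at 4W with 55.1 ± 1.11 and at 36W with 41.2 ± 3.003 (mean ± SD, n = 3). WT at 36W overlapped WT at 4W, and KO at 2D overlapped KO at 4W, while the other neighbours in this order did not overlap.

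**Figure D2:**
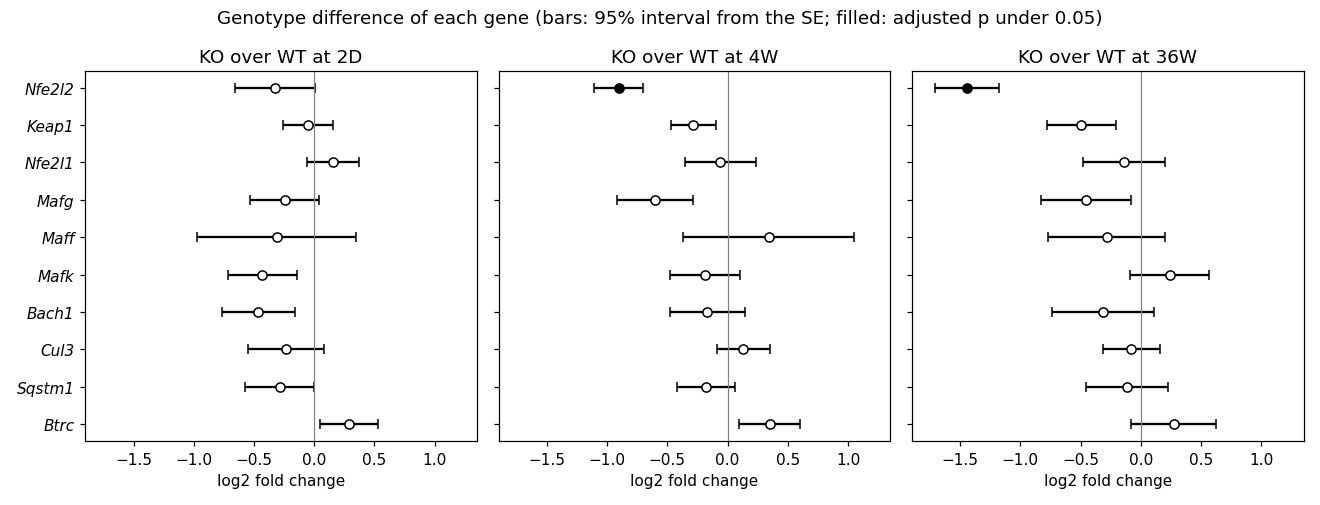
Log2 fold change of KO over WT for each of the 10 genes at 2D, 4W and 36W, with filled points for an adjusted p under 0.05 in edgeR. Bars show an approximate 95% interval from the SE, by a normal approximation that is narrower than the test implies. The filled points are Nfe2l2 at 4W and 36W, at -0.90 and -1.44.

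Nfe2l1 (ENSMUSG00000038615, mm10 chr11:96817414-96829968, minus strand) encodes NRF1, a membrane-anchored relative of NRF2 that is released when proteasome activity drops. Its level did not change between genotypes at any time. At 2D it had 97.7, 109.9 and 95.1 CPM in the KO libraries, against 81.6, 88.7 and 98.9 CPM in the WT libraries, which overlapped (log2 fold change 0.16, SE 0.11, adjusted p = 0.505). At 4W the levels were 131, 109.8 and 149.7 CPM in the KO libraries, against 161, 118 and 126 CPM in the WT libraries, which overlapped as well (log2 fold change -0.06, SE 0.15, adjusted p = 0.858). At 36W they were 130.5, 103 and 94.2 CPM in the KO libraries, against 113, 143 and 110.4 CPM in the WT libraries, again overlapping (log2 fold change -0.14, SE 0.17, adjusted p = 0.761). The approximate 95% intervals ran from -0.06 to 0.37, -0.35 to 0.24 and -0.48 to 0.20, so a 2-fold difference lay outside each of them. Intervals here and below use a normal approximation from the SE and are narrower than the quasi-likelihood test implies. In WT livers Nfe2l1 rose by 0.59 at 4W over 2D (adjusted p = 0.00905) and by 0.44 at 36W over 2D (adjusted p = 0.0383), and in KO livers it was 0.37 at 4W over 2D (adjusted p = 0.105). The first rise had an adjusted p of 0.061 without WT replicate 1 of 4W. The second was lost without WT replicate 1 or 2 of 2D or WT replicate 2 of 36W (adjusted p = 0.125, 0.104 and 0.159), with the replicate number as a block (0.0504), without a low-count filter (0.0524) and with DESeq2 size factors (0.0526). Under scaling by library size alone both were lost (0.30, adjusted p = 0.16, and 0.05, adjusted p = 0.811).

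A ratio taken inside each library needs no scaling between libraries, and it set Nfe2l1 against Nfe2l2. At 2D there were 2.26, 1.66 and 1.403 Nfe2l1 reads per Nfe2l2 read in the KO libraries, against 1.11, 1.26 and 1.298 in the WT libraries. At 4W the ratio was 2.43, 1.99 and 2.66 in KO, against 1.48, 1.08 and 1.403 in WT. At 36W it was 3.04, 2.72 and 2.19 in KO, against 1.02, 1.12 and 1.06 in WT. The KO and WT libraries did not overlap at any time, with KO replicate 3 nearest to WT at 2D, and the WT ratio stayed between 1.02 and 1.48 over all 9 WT libraries. The mean log2 ratio was higher in KO by 0.51, 0.84 and 1.30 at 2D, 4W and 36W (two-sided exact permutation p = 0.1 at each time, which is the smallest p that 3 against 3 libraries allow, n = 3 each). A ratio by itself shows unequal change of the pair and not which of them moved. The divisor is the level of the knocked-out gene, so lower Nfe2l2 alone raises this ratio in KO. In the edgeR fits of 2D, 4W and 36W, the log2 fold changes of KO over WT were -0.32, -0.90 and -1.44 for Nfe2l2. Those of Nfe2l1 were 0.16, -0.06 and -0.14.

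**Figure D3:**
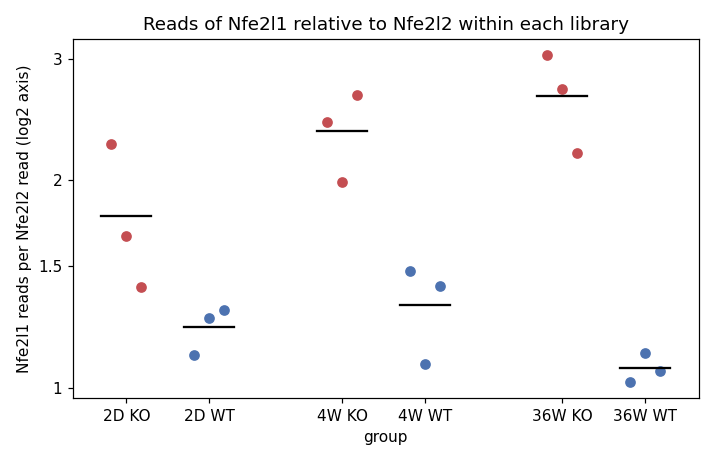
Nfe2l1 reads per Nfe2l2 read within each library on a log2 axis, by group, KO left of WT at each time, with a line at the mean of 3 libraries. The 36W KO libraries sit between 2.19 and 3.04, above the 36W WT libraries at 1.02 to 1.12.

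Keap1 (ENSMUSG00000003308, mm10 chr9:21229730-21239332, minus strand), the sensor that holds NRF2 in the cytoplasm, was level between the genotypes at 2D and lower in each KO library than in each WT library later on, without passing the test in the fits of single times. The 2D values were 32.2, 31.9 and 30.3 CPM in the KO libraries, against 31.1, 29.5 and 36.5 CPM in the WT libraries, values that overlapped (log2 fold change -0.05, SE 0.11, adjusted p = 0.838). The 4W values were 39.4, 37.4 and 36.8 CPM in the KO libraries, against 43.8, 45.1 and 48.8 CPM in the WT libraries, with no overlap (log2 fold change -0.29, SE 0.10, adjusted p = 0.12). The 36W values were 37.6, 32.9 and 37.02 CPM in the KO libraries, against 48.4, 46.2 and 59.4 CPM in the WT libraries, also with no overlap (log2 fold change -0.49, SE 0.14, adjusted p = 0.309). In the fit of all 18 libraries, which shares one estimate of spread, Keap1 was lower in KO at 36W by a log2 fold change of -0.52 (adjusted p = 0.0225). The KO effect at 36W minus that at 2D was -0.48 (adjusted p = 0.0967), and without WT replicate 3 of 2D it was -0.57 (adjusted p = 0.0467). In WT livers Keap1 rose by 0.50 at 4W over 2D (adjusted p = 0.00214) and by 0.67 at 36W over 2D (adjusted p = 0.00023). With library size alone these rises were 0.21 (adjusted p = 0.125) and 0.26 (adjusted p = 0.0567). In KO livers the value at 4W over 2D was 0.27 (adjusted p = 0.09). Keap1 shares 510 exonic bases with the antisense gene Gm16754, which had at most 17 counts in a library.

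Cul3 (ENSMUSG00000004364, mm10 chr1:80264923-80340480, minus strand), the scaffold of the ligase that KEAP1 brings to NRF2, was among the steadiest of the genes. In the 2D livers it had 62.1, 63.5 and 64.4 CPM in the KO libraries, against 79.9, 83.9 and 57.05 CPM in the WT libraries, and the low WT value is that of replicate 3 (log2 fold change -0.24, SE 0.16, adjusted p = 0.502). In the 4W livers it had 84.3, 66.3 and 68.9 CPM in the KO libraries, against 67.03, 63.9 and 68.5 CPM in the WT libraries, with overlap (log2 fold change 0.13, SE 0.11, adjusted p = 0.538). In the 36W livers it had 64.4, 72.96 and 69.2 CPM in the KO libraries, against 74.2, 78.3 and 69.1 CPM in the WT libraries, also with overlap (log2 fold change -0.08, SE 0.12, adjusted p = 0.807). The approximate 95% intervals of the later times, -0.09 to 0.35 and -0.31 to 0.16, were narrower than that of 2D. Cul3 was not called in any of the 6 comparisons between times with TMM scaling and all libraries. Without WT replicate 3 of 2D it was called lower in WT at 4W over 2D. With library size alone it was called lower in WT at 4W over 2D and at 36W over 2D.

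Without WT replicate 3, the library of 2D that stood apart, the 2D comparison called 3 of the 10 genes, all lower in KO, against 6.42% of 14147 genes called lower and 13.1% called in either direction. These were Bach1 (log2 fold change -0.57, adjusted p = 0.0288), Cul3 (-0.39, adjusted p = 0.0295) and Mafk (-0.50, adjusted p = 0.0466). Nfe2l2 was not among them. Keap1 had a log2 fold change of 0.035 without that library, against -0.05 with it, and was called in neither case. Summed levels of 7 stellate and fibroblast markers were 878 to 1272 CPM in the KO libraries of 2D, against 803 to 5606 CPM in the WT libraries, the highest in replicate 3, and the part of these cells in the 2D values was not tested.

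Bach1 (ENSMUSG00000025612, mm10 chr16:87698945-87733346, plus strand), the heme-sensitive repressor that competes with NRF2 for small Maf partners, was higher at 36W than at the earlier times in both genotypes. The 2D values were 19.7, 22.3 and 21.4 CPM in the KO libraries, against 27.3, 34.5 and 24.5 CPM in the WT libraries. KO libraries were all below WT libraries there, and the difference was not called with all 6 libraries (log2 fold change -0.46, SE 0.16, adjusted p = 0.217). The 4W values were 42.5, 32.9 and 32.1 CPM in the KO libraries, against 48.1, 34.8 and 36.98 CPM in the WT libraries, with overlap (log2 fold change -0.17, SE 0.16, adjusted p = 0.581). The 36W values were 70.6, 84.9 and 114 CPM in the KO libraries, against 95.3, 136 and 109 CPM in the WT libraries, with wide overlap (log2 fold change -0.31, SE 0.22, adjusted p = 0.579). Bach1 rose at 36W over 4W by 1.33 in KO (SE 0.19, adjusted p = 0.000111) and by 1.51 in WT (SE 0.19, adjusted p = 7.75e-05). At 4W over 2D it rose by 0.76 in KO (adjusted p = 0.00968, and 0.0579 without KO replicate 1 of 4W). In WT that step was 0.47 and was not called (adjusted p = 0.0624). Without 1 library at a time it ran from 0.315 to 0.63 (adjusted p between 0.0344 and 0.274), and it was called only without WT replicate 2 of 2D. Under other tools, scalings and filters it ran from 0.19 to 0.48 (adjusted p between 0.0622 and 0.405). Over the whole span Bach1 rose 4.25-fold in KO and 3.95-fold in WT. Per kb of gene, the Bach1 level was 0.156, 0.275 and 0.9204 of the Nfe2l2 level in KO at 2D, 4W and 36W, against 0.167, 0.165 and 0.419 in WT (two-sided exact permutation p = 0.6, 0.1 and 0.1, n = 3 each). The divisor is the level of the knocked-out gene, so lower Nfe2l2 alone raises this ratio in KO. Which of the pair was higher in KO at 36W turned with the gene lengths used. By exon lengths of GENCODE M21 the mean was 14.5 CPM per kb for Bach1 and 10.9 for Nfe2l2, where the deposited lengths gave 15.3 and 16.7.

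Maff (ENSMUSG00000042622, mm10 chr15:79347541-79359072, plus strand) encodes the small Maf protein best known as a stress- and cytokine-induced one, and it had the largest change of the 10 genes between times. At 2D it had 2.38, 4.83 and 4.59 CPM in the KO libraries, against 3.502, 4.85 and 6.17 CPM in the WT libraries. At 4W the levels were 6.17, 2.93 and 6.199 CPM in the KO libraries, against 5.38, 2.71 and 3.91 CPM in the WT libraries. At 36W they were 19.8, 28.3 and 34.03 CPM in the KO libraries, against 24.9, 38.2 and 38.9 CPM in the WT libraries. Each of the 6 libraries of 36W was above each of the 12 earlier ones, and the genotypes overlapped at every time (log2 fold changes -0.31, 0.34 and -0.28, adjusted p = 0.675, 0.63 and 0.661). Maff rose at 36W over 4W by 2.43 in KO (SE 0.35, adjusted p = 0.000102), a 5.39-fold rise, and by 3.09 in WT (SE 0.36, adjusted p = 4.03e-05), an 8.50-fold rise. The rise did not differ detectably between the genotypes, with a KO effect at 36W minus 4W that had an approximate 95% interval of -1.60 to 0.28.

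Mafk (ENSMUSG00000018143, mm10 chr5:139791513-139802653, plus strand) is a broadly expressed small Maf gene, and it too was higher at 36W. The 2D values were 12.5, 14.4 and 14.3 CPM in the KO libraries, against 17.5, 21.02 and 16.6 CPM in the WT libraries, with each KO library lower, a difference not called with all 6 libraries (log2 fold change -0.43, SE 0.15, adjusted p = 0.22). The 4W values were 17.4, 12.9 and 16.6 CPM in the KO libraries, against 19.4, 16.6 and 16.99 CPM in the WT libraries, with overlap (log2 fold change -0.19, SE 0.15, adjusted p = 0.506). The 36W values were 41.3, 40.6 and 36.6 CPM in the KO libraries, against 26.6, 38.99 and 36.6 CPM in the WT libraries, with WT replicate 1 the lowest (log2 fold change 0.24, SE 0.17, adjusted p = 0.58). Mafk rose at 36W over 4W by 1.34 in KO (adjusted p = 1.99e-05) and by 0.95 in WT (adjusted p = 0.000486). The KO effect at 36W minus that at 2D was 0.63 (SE 0.22, adjusted p = 0.111), on the other side of zero from that of Nfe2l2. Mafk shares 169 exonic bases with Tmem184a on the opposite strand, which had up to 319 counts, and the strand of the counting is not given in the sources used here.

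Mafg (ENSMUSG00000051510, mm10 chr11:120625117-120633600, minus strand), the small Maf gene most abundant here at the early times, moved the other way. In the 2D livers it had 70.8, 58.5 and 51.8 CPM in the KO libraries, against 72.8, 75.2 and 64.4 CPM in the WT libraries, with overlap (log2 fold change -0.25, SE 0.15, adjusted p = 0.443). In the 4W livers it had 71.7, 52.2 and 58.6 CPM in the KO libraries, against 109, 91.4 and 74.5 CPM in the WT libraries, and each KO library was below each WT library (log2 fold change -0.60, SE 0.16, adjusted p = 0.0619). In the 36W livers it had 44.9, 45.6 and 34.8 CPM in the KO libraries, against 59.4, 45.5 and 69.4 CPM in the WT libraries (log2 fold change -0.45, SE 0.19, adjusted p = 0.412), and KO replicate 2 lay just above WT replicate 2. At 4W the gene sat near the threshold: it was called lower in KO by DESeq2 (adjusted p = 0.00751), without a low-count filter (0.00911), with the replicate number as a block (0.0231), with library size alone (0.0436), without KO replicate 1 (0.0441) and without WT replicate 3 (0.049). Mafg fell at 36W over 4W by 0.54 in KO (adjusted p = 0.0333) and by 0.66 in WT (adjusted p = 0.0159). The fall in KO was lost without KO replicate 3 of 36W or KO replicate 1 or 3 of 4W (adjusted p = 0.15, 0.155 and 0.0613). The fall in WT was lost without WT replicate 2 of 36W or WT replicate 1 of 4W (adjusted p = 0.0795 and 0.0724). Mafg shares 124 exonic bases with Sirt7 on the same strand, which had up to 926 counts.

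The small Maf transcript pool therefore had another make-up at 36W. Per kb of gene, Mafg made up 65.2%, 61.9% and 24.1% of the summed level of the 3 genes in KO at 2D, 4W and 36W, against 63.04%, 70.4% and 29.6% in WT. Maff made up 10.98%, 12.9% and 39.7% in KO, against 11.04%, 7.79% and 43.2% in WT. Mafk made up 23.8%, 25.3% and 36.2% in KO, against 25.9%, 21.8% and 27.2% in WT. Mafg was the leading small Maf gene at 2D and 4W in both genotypes, and Maff had the highest mean share at 36W in both. In KO replicate 1 of 36W Mafk led, with 40.8%, against 31.4% for Maff. The lead of Maff depends on the gene lengths. In CPM, KO at 36W had means of 27.4 for Maff, 39.5 for Mafk and 41.8 for Mafg, against 34.01, 34.07 and 58.1 in WT. The summed level was 18.7, 20.05 and 35.4 CPM per kb in KO, against 22.8, 26.4 and 40.4 in WT. Set against the summed level of their partners Nfe2l2, Nfe2l1 and Bach1, it was 0.387, 0.355 and 0.642 in KO, against 0.425, 0.341 and 0.445 in WT (two-sided exact permutation p = 0.5, 0.8 and 0.1, n = 3 each). The divisor includes the knocked-out gene, so lower Nfe2l2 alone raises the ratio in KO. At 36W the partner sum was 55.4 CPM per kb in KO, against 91.6 in WT.

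**Figure D4:**
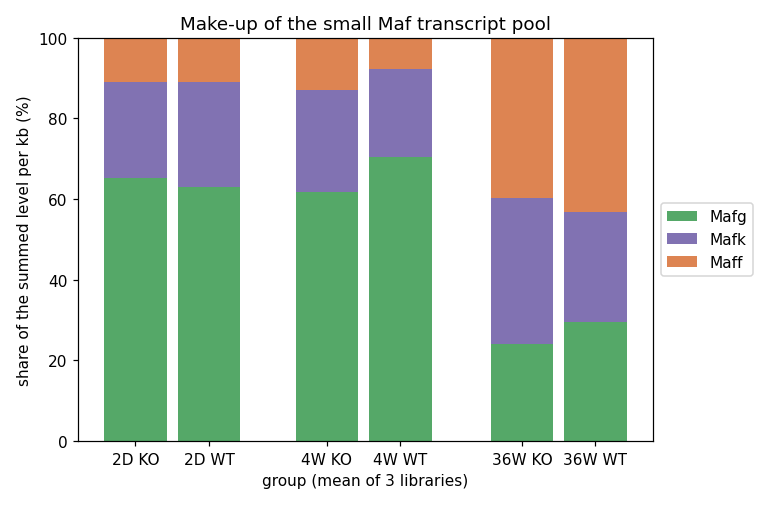
Share of Mafg, Mafk and Maff in the summed level per kb of the 3 small Maf genes, in percent, as the mean of 3 libraries for each group, KO left of WT at each time. Maff makes up 39.7% in KO and 43.2% in WT at 36W, against at most 12.9% in the earlier groups.

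Sqstm1 (ENSMUSG00000015837, mm10 chr11:50199366-50210827, minus strand) encodes p62, an autophagy receptor that binds KEAP1 and is itself a known NRF2 target. The 2D values were 171, 229 and 183 CPM in the KO libraries, against 234, 256 and 211 CPM in the WT libraries (log2 fold change -0.28, SE 0.15, adjusted p = 0.384). The 4W values were 465, 351 and 443 CPM in the KO libraries, against 489, 467 and 461 CPM in the WT libraries (log2 fold change -0.18, SE 0.12, adjusted p = 0.437). The 36W values were 451, 466 and 399.5 CPM in the KO libraries, against 422, 456 and 568 CPM in the WT libraries (log2 fold change -0.11, SE 0.17, adjusted p = 0.806). The genotypes overlapped at every time, and each of the 12 later libraries was above each of the 6 libraries of 2D. Sqstm1 rose at 4W over 2D by 1.11 in KO (SE 0.15, adjusted p = 9.7e-05) and by 1.01 in WT (SE 0.15, adjusted p = 0.000103), and it was not called at 36W over 4W in either genotype (adjusted p = 0.783 and 0.921). It shares 580 exonic bases with Mrnip on the opposite strand, which had at most 80 counts.

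Btrc (ENSMUSG00000025217, mm10 chr19:45363734-45533341, plus strand), which encodes the F-box protein βTrCP, was the one gene of the set with a positive log2 fold change at all 3 times. In the 2D livers it had 23.1, 25.6 and 21.9 CPM in the KO libraries, against 18.8, 17.1 and 21.3 CPM in the WT libraries (log2 fold change 0.29, SE 0.12, adjusted p = 0.303). In the 4W livers it had 23.7, 23.6 and 20.4 CPM in the KO libraries, against 18.8, 15.5 and 18.6 CPM in the WT libraries (log2 fold change 0.35, SE 0.13, adjusted p = 0.149). In the 36W livers it had 25.4, 20.2 and 20.1 CPM in the KO libraries, against 21.9, 18.2 and 15.1 CPM in the WT libraries (log2 fold change 0.27, SE 0.18, adjusted p = 0.565). The KO libraries lay above the WT libraries at 2D and 4W and overlapped them at 36W, and none of the 3 differences was called. Btrc was not called in any comparison between times with TMM scaling either, and with library size alone it was called lower in WT at 36W over 2D.

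Across times, 2 of the 10 genes were called at 4W over 2D in KO, both higher, against 24.2% of all genes in either direction and 13.5% higher. In WT the same step called 4, all higher, against 37.7% of all genes and 19.1% higher. At 36W over 4W 5 of 10 were called in KO, 3 higher and 2 lower, against 29.8% of all genes, of which 14.5% higher and 15.3% lower. That step called 4 in WT, 3 higher and 1 lower, against 21% of all genes, of which 11.9% higher and 9.13% lower. At 36W over 2D 6 of 10 were called in KO, 4 higher and 2 lower, against 33.7% of all genes, of which 17.8% higher and 15.8% lower. The same span called 7 in WT, all higher, against 37.8% of all genes and 20.7% higher. With library size alone that span in WT called 4 higher, which were Maff, Mafk, Bach1 and Sqstm1, and 3 lower, which were Mafg, Cul3 and Btrc. The step of 4W over 2D in WT then called Sqstm1 higher and Cul3 lower. The median log2 fold change of the 10 genes at 36W over 2D was 0.15 in KO and 0.65 in WT, beside 0.01 and -0.01 over all genes. Maff, Mafk, Bach1 and Sqstm1 were called higher in both genotypes over that span, while Nfe2l2 was called lower in KO and, with TMM scaling, higher in WT. Nfe2l2 was also called lower at 36W over 4W in KO (-0.42, adjusted p = 0.037), a call lost on leaving out any one of the 6 libraries (adjusted p between 0.0572 and 0.129), with library size alone (0.0889), without a low-count filter (0.0662) and with a minimum of 1 CPM in 3 samples (0.0514). In WT it rose at 4W over 2D by 0.49 (adjusted p = 0.0139, and 0.0516 or 0.0512 without WT replicate 1 or 2 of 4W), which was 0.20 with library size alone (adjusted p = 0.349). Mafg fell at 36W over 2D by 0.53 in KO (adjusted p = 0.0332), a call lost without KO replicate 1 or 2 of 2D or KO replicate 3 of 36W (adjusted p = 0.149, 0.0542 and 0.144).

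Tissue markers moved over the same span. Summed levels of the 8 hepatocyte markers were 104872 to 121914, 116887 to 143983 and 183473 to 212222 CPM in KO at 2D, 4W and 36W, against 84863 to 93220, 100650 to 130742 and 166031 to 247729 CPM in WT. Single hepatocyte markers did not move alike. Alb, the serum albumin gene, carried most of the sum, with 140573 to 160742 CPM in KO at 36W, against 132895 to 204934 CPM in WT. Cps1, a urea cycle enzyme gene, had 4944 to 8635 CPM in KO at 2D and 926 to 1706 CPM in KO at 36W. In WT it had 5173 to 8447 CPM at 2D and 1098 to 2862 CPM at 36W. Cyp2e1, a cytochrome P450 gene, had 4870 to 6425 CPM in KO at 4W and 187 to 1241 CPM at 36W. In WT it had 4817 to 4944 CPM at 4W and 446 to 1563 CPM at 36W. Summed levels of 6 bile duct markers reached 721 to 1172 CPM in KO at 36W, against 102 to 557 CPM in WT. Most of this was Spp1, which encodes osteopontin, with 678 to 1147 CPM in KO, against 80.02 to 506 CPM in WT. Krt19 had at most 2.72 CPM in KO and 1.01 CPM in WT at 36W, and Krt7 at most 3.13 CPM in KO and 1.08 CPM in WT. None of these markers was at 0 in a whole group. The part of such shifts in the rises of Maff, Mafk and Bach1 was not tested.

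**Figure D5:**
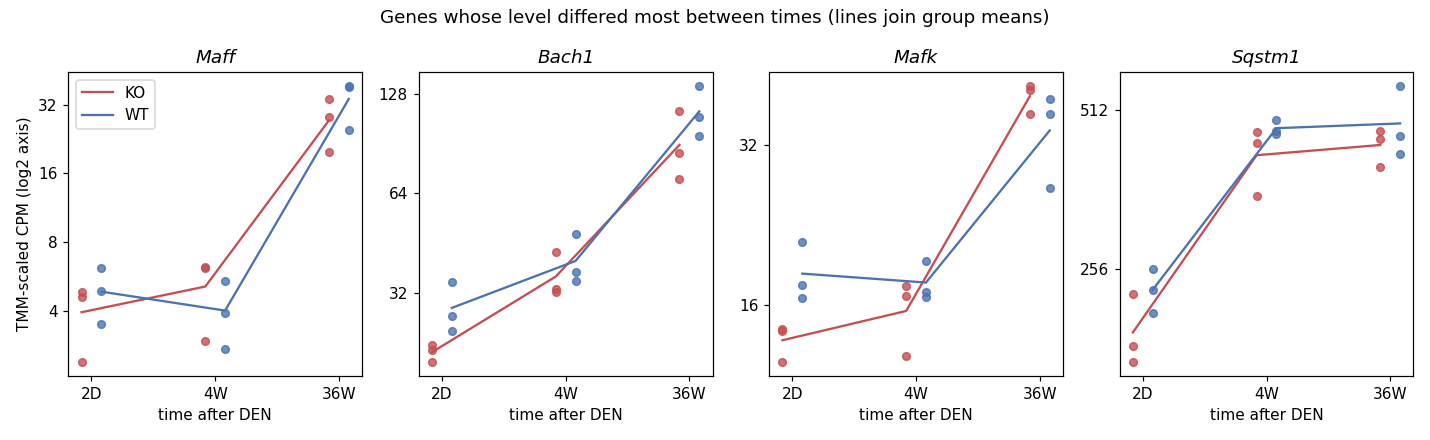
TMM-scaled CPM on log2 axes for Maff, Bach1, Mafk and Sqstm1 in each library at 2D, 4W and 36W after DEN, KO in red and WT in blue, with lines that join the group means. Maff, Bach1 and Mafk are highest at 36W in both genotypes, and Sqstm1 is already at its later level by 4W.

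Levels of the genes can be set against each other per kb of deposited gene length. Sqstm1 was the highest in every group, at 72.7, 157 and 164 CPM per kb in KO at 2D, 4W and 36W, against 87.5, 177 and 180.3 in WT. In WT livers Nfe2l2 came next, at 29.6, 41.4 and 46.1 CPM per kb, followed by Nfe2l1 at 19.3, 28.99 and 26.2. In KO livers Nfe2l2 had 23.9, 22.3 and 16.7 CPM per kb, and Nfe2l1 had 21.7, 27.99 and 23.4, so that Nfe2l1 was above Nfe2l2 at 4W and 36W and their libraries overlapped at 2D. With exon lengths of GENCODE M21 in place of the deposited lengths, a choice made after seeing the data, the mean of Nfe2l1 was above that of Nfe2l2 in KO at 2D as well, with a lowest ratio of 0.979 among the 3 libraries. Maff was the lowest of the 10 at 2D and 4W in both genotypes by deposited length, at 2.03 and 2.64 CPM per kb in KO, against 2.505 and 2.07 in WT, and by 36W it stood at 14.2 in KO, against 17.6 in WT. M21 lengths put Btrc below Maff at 2D and 4W. Btrc was the lowest at 36W, at 3.46 in KO, against 2.91 in WT.

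The pattern of Nfe2l2 over the 18 libraries was compared with that of 8701 genes, by the root mean square difference of log2 CPM after centring each gene on its own mean. The 5 nearest were Txnrd1, a thioredoxin reductase (0.333 log2 units), Hfe, a regulator of iron uptake (0.334), Dnajb4, a heat shock protein partner (0.340), Blvrb, a biliverdin reductase (0.342), and Gsr, the glutathione reductase (0.349), where the median gene was at 0.604. Txnrd1 averaged 83.2, 94.6 and 75.0 CPM in KO at 2D, 4W and 36W, against 128, 173 and 243 CPM in WT. Among the 10 genes the nearest was Keap1, at rank 34 (0.415), followed by Mafg at rank 362 (0.475), and the farthest was Maff at rank 8497 (1.45). The libraries share their groups and their scaling, and these distances are given as a description.

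Other genes of the pathway give the setting for the 10. Of 24 tested classical NRF2 targets 4 were called lower in KO at 2D and 0 higher, against 0.122% of all genes called lower, with a median log2 fold change of -0.39. At 4W 16 of 24 were called lower and 0 higher, against 4.13% of all genes called lower, with a median of -0.78. At 36W edgeR called 0 of 25, against 0.037% of all genes, with a median of -1.11. An unadjusted p under 0.05 was found for 18 of the 25 and for 1617 of 13516 genes tested. DESeq2 called 13 lower, limma-voom 0, and the edgeR fit of all 18 libraries 16 lower. Gstm1, a glutathione transferase with the smallest p of that list at 36W, had 279.6 CPM in KO, against 4473 CPM in WT (log2 fold change -3.98, adjusted p = 0.153). The medians of all genes at these times were -0.04, 0.01 and 0.01. Of 23 other regulators of NRF2, edgeR called 0 at 2D, 1 at 4W and 0 at 36W, against 0.165%, 6.08% and 0.037% of all genes. An unadjusted p under 0.05 was found for 4, 5 and 5 of the 23. The same held for 2236 of 13913, 2966 of 13394 and 1617 of 13516 genes tested. DESeq2 and limma-voom gave the same counts of calls. The edgeR fit of all 18 libraries called 0, 1 and 1, both lower in KO. The one at 4W was Syvn1, which encodes the endoplasmic reticulum ligase HRD1, with 58.7 CPM in KO, against 213 CPM in WT (log2 fold change -1.87, SE 0.15, adjusted p = 0.000446). Its KO effect differed between the times, by -2.27 at 4W minus 2D (adjusted p = 0.000179) and by 2.28 at 36W minus 4W (adjusted p = 0.000163). Of 8 genes that process NRF1, 2 were called at 4W, Syvn1 again and Sel1l, its partner in the same complex (-0.62, adjusted p = 0.0189), both lower in KO, beside the 4.13% of all genes called lower. At 2D and 36W edgeR called 0 of the 8, against 0.165% and 0.037% of all genes, while DESeq2 called 1 higher and 0. Both genes had a log2 fold change of 0.40 at 2D, with KO libraries above WT libraries, and neither was called (adjusted p = 0.169 for Syvn1 and 0.167 for Sel1l in edgeR).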

How the data were processed

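The deposited table holds whole-number, unnormalized counts for 18 libraries, with the name, start, end and length of each gene as other columns. Per the labels' protocols, total RNA from flash-frozen tissue was made into TruSeq libraries, and the submitters' processing notes name STAR 2.5, HTSeq, DESeq2 and mm10. Strand setting and annotation release are not given in the sources used here. For each time the 6 libraries of that time were fitted with edgeR 4.0.16 in R 4.3.3 (quasi-likelihood test of KO over WT, filterByExpr as the low-count filter, TMM scaling) and Benjamini-Hochberg adjustment over all genes tested, with a threshold of 0.05. Times, and differences of the KO effect between times, were tested in 1 fit of all 18 libraries. Ratios within libraries were compared by two-sided exact permutation. Alternatives were DESeq2 1.42.0, limma-voom 3.58.1, other scalings and filters, the replicate number as a block, and leaving out each library. The pipeline was checked on simulated data. No pair of libraries agreed within sampling noise. The 10 genes were always named, with up to 3 called genes with the smallest p from each pathway list and comparison, or the one with the smallest p where none was called, and the 5 genes most like Nfe2l2 among those whose average log2 CPM (prior count 2) was 3 or more. Members, lists and tests were chosen with earlier results of these data known. Marker genes used to describe a single library were chosen after their values were seen. Sequences are from RefSeq tables of GRCm38.p6.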

Additional observations from a re-analysis of the deposited data

Results flagged for a closer look

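The KO effect on Nfe2l2 differed between times: the log2 fold change of KO over WT at 36W minus the one at 2D was -1.16 (SE 0.20, adjusted p = 0.0109 in edgeR's fit of 18 libraries). The 3 KO libraries were below the 3 WT libraries at both times. On leaving out each of the 12 libraries of these times in turn the difference lay between -1.34 and -1.04, with an adjusted p between 0.00205 and 0.0404. With scaling by library size alone it was -0.97 (adjusted p = 0.052) and no longer past the threshold. Groups of 3 libraries were not examined for single outlying values.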

How the results depend on the processing

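Of the KO over WT log2 fold changes of the 10 genes, 233 of 240 under other tools, scalings and filters and 166 of 180 without 1 library kept their direction and side of the threshold. At 4W 1 of the 10 genes was called, and 2 with DESeq2, library size alone, no low-count filter or the replicate block, Mafg being the added one, and between 1 and 2 without 1 library. At 36W 1 was called, 2 in the fit of all 18 libraries, 0 with library size alone (Nfe2l2 -1.38, adjusted p = 0.0558) or the replicate block (-1.44, adjusted p = 0.122), and between 0 and 1 without 1 library. At 2D 0 were called, and between 0 and 3 without 1 library. At 4W over 2D in WT 4 were called, 2 with library size alone, and between 2 and 5 without 1 library. The corresponding ranges were 1 to 2 at 4W over 2D in KO, 3 to 4 at 36W over 4W in KO, 0 to 1 for the KO effect at 4W minus 2D and 1 to 2 for that at 36W minus 2D, which had 0 with library size alone. Without 1 library at a time the log2 fold change of KO over WT ran from -0.10 to 0.035 for Keap1 at 2D, from -0.18 to 0.082 for Nfe2l1 at 4W and from -0.20 to 0.023 for Sqstm1 at 36W, none of them called. The cause of these changes was not tested.

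Over all genes, edgeR called 23 at 2D, 814 at 4W and 5 at 36W. DESeq2 called 699, 1243 and 292, the fit of all 18 libraries 101, 439 and 401, and leaving out 1 library 1 to 1853, 360 to 823 and 0 to 36. At 2D limma-voom called 7, the replicate block 13 and no low-count filter 84, and at 36W the block called 0 and no low-count filter 47. For the KO effect DESeq2 called 623 at 4W minus 2D, 562 at 36W minus 4W and 1144 at 36W minus 2D, against 199, 84 and 453 in edgeR. Library size alone gave 125 and 237 for the first and last of these, and the block 142 for the middle one. Scaling by library size alone moved the median of all genes by -0.21 and -0.29 at 4W over 2D in KO and in WT, and by -0.19 and -0.39 at 36W over 2D, and it moved the balance of calls. It gave 1104 higher and 2727 lower at 4W over 2D in KO (2005 and 1600 with TMM), 1532 and 4817 in WT (2845 and 2761), 1736 and 3401 at 36W over 2D in KO (2653 and 2356), 1451 and 5612 in WT (3073 and 2546), 1272 and 1743 at 36W over 4W in WT (1772 and 1359), 2 and 27 for KO over WT at 2D (6 and 17), and 3 and 1 at 36W (3 and 2). For the KO effect it gave 46 and 79 at 4W minus 2D (49 and 150), 68 and 14 at 36W minus 4W (42 and 42) and 165 and 72 at 36W minus 2D (91 and 362). Libraries with the same replicate number in the KO and WT groups share only that number: the correlation of their deviations from the group means was over 0.1 in 2 of 9 pairs, between -0.07 and 0.23. Depth bears on Maff, which had 47 to 773 reads in a library, the lowest minimum of the 10 genes.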

Other observations

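Some genes of selective autophagy, the process in which the Sqstm1 product works, were called higher at 4W than at 2D. At 4W over 2D 5 of 16 were called higher in KO and 8 of 16 in WT, with 0 lower in either, beside 13.5% and 19.1% of all genes called higher. Gabarapl1, which encodes a protein of the autophagosome membrane, averaged 366 CPM in KO at 4W, against 59.9 CPM at 2D (log2 fold change 2.61, adjusted p = 2.02e-06). In WT it averaged 264.6 CPM at 4W, against 93.1 CPM at 2D. The conjugation enzyme gene Atg7 rose by 1.25 in KO (adjusted p = 5.92e-06) and by 1.51 in WT (adjusted p = 5.15e-07). At 36W over 4W 6 of 16 were called lower and 1 higher in KO, beside 15.3% of all genes called lower and 14.5% higher, and 3 lower and 1 higher in WT, beside 9.13% and 11.9%. Lamp2, which encodes a lysosomal membrane protein, fell in KO by 1.05 (adjusted p = 3.6e-05), with a KO effect at 36W minus 4W that was not called (-0.44, adjusted p = 0.261). Between genotypes edgeR called 0 of 16 at 2D, 1 lower in KO at 4W and 0 at 36W. The shares of all genes called in either direction were 0.165%, 6.08% and 0.037%. An unadjusted p under 0.05 was found for 5, 4 and 2 of the 16. The same held for 2236 of 13913, 2966 of 13394 and 1617 of 13516 genes tested. DESeq2 called 0, 2 and 0 of the 16.

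Of the other CNC and large Maf factors, 5 of 7 passed the low-count filter, and Nfe2, the founding member of the CNC family and known from megakaryocytes, stood at 13.04 CPM in KO at 36W, against 1.39 CPM at 4W (log2 fold change 3.23, adjusted p = 0.000319). This step of Nfe2 did not differ detectably between the genotypes (KO effect at 36W minus 4W 0.56, adjusted p = 0.769). Between genotypes edgeR called 0 of 5 at 2D, 4W and 36W, against 0.165%, 6.08% and 0.037% of all genes. An unadjusted p under 0.05 was found for 0, 2 and 0 of the 5. The same held for 2236 of 13913, 2966 of 13394 and 1617 of 13516 genes tested. DESeq2 called 0, 1 and 0.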
